A study of Homo sapiens with 6 samples.

Results

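Receptor tyrosine kinases and the growth factors that bind them were examined in U87-MG, an established human glioblastoma cell line. The set holds 58 named genes, 31 receptors and 27 growth factors, with the Eph family left out, and all 58 were found by symbol among the 61806 genes of the deposited table. IGF2R, the mannose 6-phosphate receptor that clears IGF2, is counted with the receptors although it carries no kinase. RNA sequencing covered 6 libraries of bulk RNA. The 3 negative control (NC) libraries carry the genotype label wildtype, and the other 3 libraries were labelled GRIK1 siRNA with the genotype GRIK1 knockdown. GRIK1 codes for a kainate-type glutamate receptor subunit. No treatment time is given in the labels, which do not say either whether the numbers 1 to 3 after siRNA are repeats or different siRNA sequences, so they were used as replicate numbers. U87-MG is a single line, and nothing says that the libraries came from separate cultures, so the p-values measure only the spread between these samples. In bulk RNA, fewer expressing cells and less RNA per cell cannot be told apart.

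The libraries held 11099909 to 14006968 counted reads, with a median of 12503221. A count of 0 in a library still allows up to 3 reads, and counting intervals cover counting error only. GRIK1 itself had 18, 9 and 8 reads in the NC libraries and 15, 20 and 20 reads in the siRNA-labelled libraries. Its level was not lower in the libraries labelled GRIK1 siRNA (0.233 ± 0.131 against 0.340 ± 0.0436 FPKM, n = 3 each, two-sided exact permutation p = 0.4, where 0.1 is the smallest possible), so these are called the siRNA-labelled libraries throughout. NC 3 stood apart from the other 5 libraries. Principal component 1 (59.5% of the variation) set it off from all of them, and on component 2 (19.2%) it lay with the siRNA-labelled libraries rather than with NC 1 and NC 2. Ribosomal protein genes took 9.37% of its reads against 4.79% to 5.50% in the others. Members with an adjusted p under 0.05 in either fit are therefore given with all 6 libraries and again without NC 3. Some other genes are given from a single fit. Of the marker lists, the mesenchymal genes dominated (summed level 1453 to 2528 FPKM in NC and 3044 to 3171 FPKM in the siRNA-labelled libraries), while 10 glial and neural progenitor markers summed to 4.67 to 5.54 FPKM and 4.23 to 4.59 FPKM. Of those 10, OLIG1, AQP4 and ALDH1L1 had no read, and S100B had at most 1 in any library. The 3 genes of the CDKN2A locus that U87-MG is known to lack had at most 7 reads in any library. The 6 endothelial markers summed to at most 0.370 FPKM and the 6 immune markers to at most 5.27 FPKM, and the immune markers CD3E and AIF1 and the endothelial marker EMCN had no read. The epithelial list (5.72 to 7.65 FPKM) and the neuronal list (3.53 to 6.57 FPKM) were at similar low levels. GFAP, the astrocyte filament, had 8 to 13 reads in NC and 36 to 39 in the siRNA-labelled libraries. SLC1A3, the largest part of the glial sum, went the other way. It had 781 to 821 reads in NC and 525 to 603 in the siRNA-labelled libraries. OLIG2, NES and FABP7 had 15 to 51 reads, with overlapping groups, and SOX2 had at most 4. CD68 was the largest part of the immune sum, at 2.11 to 3.21 FPKM in NC and 3.44 to 4.06 FPKM in the siRNA-labelled libraries. The mesenchymal, glial and immune sums did not overlap between the groups (immune 3.58 to 4.40 FPKM in NC, 5.09 to 5.27 FPKM in the others), and their part in the results below was not tested.

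A receptor tyrosine kinase spans the cell membrane once, binds its growth factor outside the cell and, when receptors pair, phosphorylates its partner on tyrosines that recruit the RAS to ERK and PI3K to AKT cascades. A growth factor can act on the cell that makes it or on neighbours, so the transcripts of ligand and receptor together show which loops a cell population could supply itself. EGFR, PDGFRA and MET are among the receptors most often altered in glioblastoma, and vascular endothelial growth factors link tumour cells to the vessels around them. All values below are RNA levels and say nothing of protein or phosphorylation.

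Levels were compared in FPKM, read counts scaled to the exonic size of the gene and to the total of the library. That size, from 1970 bases for VEGFB to 17201 for FGFR1, belongs to the gene and not to a transcript. Which transcripts these cells used was not measured, so rankings and ratios between genes in FPKM depend on it. Of the 58 genes, 11 had a mean of 10 FPKM or more over the 6 libraries, 17 lay between 1 and 10, 2 between 0.5 and 1, and 28 below 0.5. The 30 genes at 0.5 FPKM or more were tested between the groups and comprised 13 of the 31 receptors and 17 of the 27 growth factors. Among receptors, MET, which binds hepatocyte growth factor, was the highest with a mean of 32.0 FPKM, followed by AXL (31.0 FPKM), the collagen receptor DDR2 (22.4 FPKM), IGF2R (19.5 FPKM) and EGFR (14.3 FPKM). MET measured 31.5 ± 4.14 FPKM in NC and 32.4 ± 0.734 FPKM in the siRNA-labelled libraries, and AXL 24.6 ± 1.62 FPKM in NC and 37.5 ± 1.80 FPKM in the siRNA-labelled libraries (mean ± SD, n = 3 each). This order of pooled means did not hold in every library. In the siRNA-labelled libraries AXL was above MET and IGF2R above DDR2. In NC 3 EGFR stood at 6.63 FPKM and IGF2R at 5.42 FPKM, against 14.9 or more and 19.3 or more in the other libraries. FGFR1 (8.0 FPKM), DDR1 (7.23 FPKM) and PDGFRB (4.49 FPKM) came next. IGF1R, TYRO3, INSR, KDR and ERBB2 were between 0.928 and 2.76 FPKM. Among growth factors, the lymphatic growth factor VEGFC (37.5 FPKM) and VEGFB (36.9 FPKM) were the highest, ahead of FGF2 (26.3 FPKM), the EGFR ligand epiregulin, EREG (19.4 FPKM), and PDGFC (13.3 FPKM). VEGFC was below VEGFB in each NC library, at 40.2 ± 11 and 45.4 ± 9.11 FPKM, and above it in each siRNA-labelled library, at 34.8 ± 0.846 and 28.5 ± 2.87 FPKM (SD, n = 3 each).

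**Figure D1:**
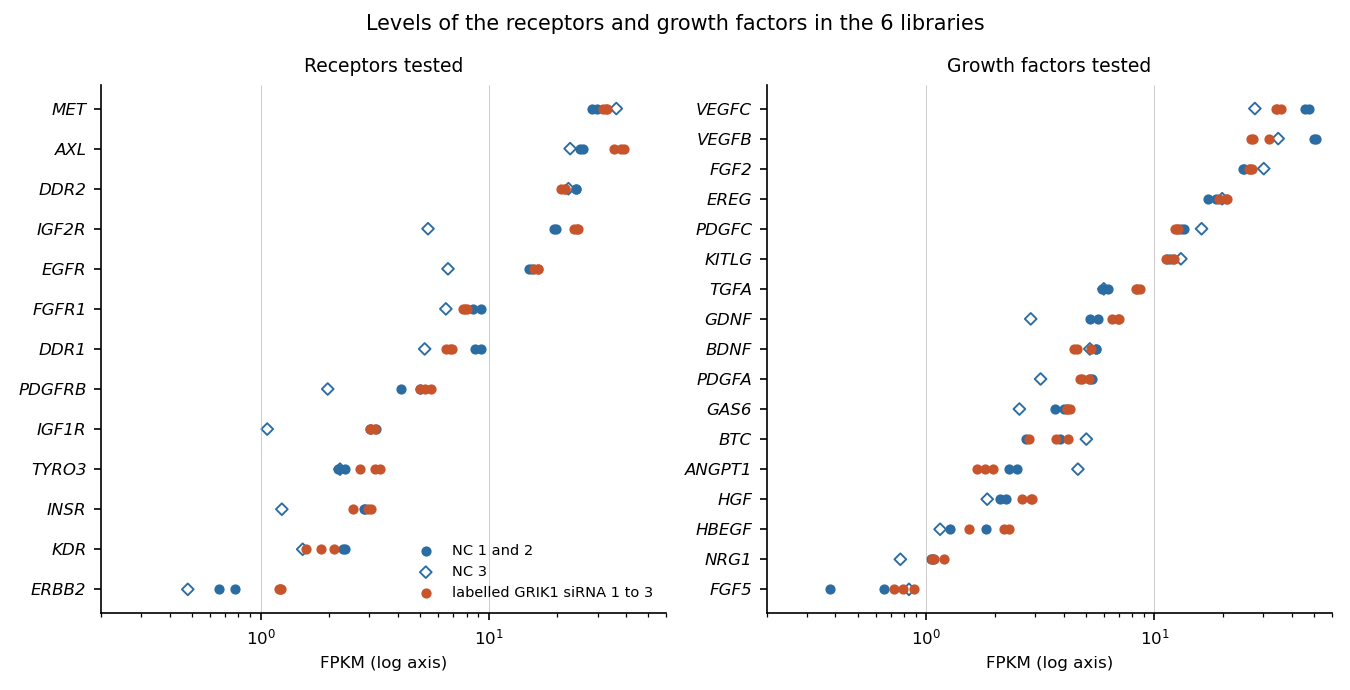
FPKM of the 13 receptors (left) and 17 growth factors (right) at a mean of 0.5 FPKM or more, on log axes, with each point 1 library and NC 3 drawn as an open diamond. MET at 32.0 FPKM and VEGFC at 37.5 FPKM have the highest means, and the NC 3 diamonds of IGF2R, EGFR, IGF1R, INSR and GDNF lie well to the left of the other libraries.

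Within most families 1 gene made up nearly all of the FPKM. EGFR gave 91.6% to 95.6% of the summed FPKM of the 4 ERBB receptors in the 6 libraries, and FGFR1 gave 96.9% to 99.8% of that of the 4 FGF receptors. AXL gave 91.1% to 92.7% of the 3 receptors AXL, TYRO3 and MERTK. On the ligand side FGF2 made up 95.6% to 97.1% of the listed fibroblast growth factors and PDGFC 70.8% to 83.5% of the platelet-derived growth factors. The EGFR ligands were more evenly spread, with EREG at 57.3% to 63.2% of the 6. EREG, AREG and BTC lie near each other on chromosome 4 of GRCh38, from 74365145 to 74794523, yet their mean levels were 19.4, 0.175 and 3.72 FPKM. The receptor genes PDGFRA, KIT and KDR are also neighbours on that chromosome, from 54229280 to 55125595, and of these KDR alone was above 0.5 FPKM, at 1.95 FPKM against 0.0367 FPKM for PDGFRA and no read for KIT.

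With all 6 libraries, 3 of the 30 tested genes differed between the groups at an adjusted p under 0.05. The receptors ERBB2 and AXL were higher in the siRNA-labelled libraries and the growth factor VEGFB was lower. These came from edgeR's quasi-likelihood test with Benjamini-Hochberg adjustment over all 15870 genes tested, in which 3.08% of genes passed, 1.60% higher and 1.48% lower. None of the 30 had a log2 fold change over 1 in size as well, against 1.41% of all genes, and 9 of the 30 had an unadjusted p under 0.05, as did 25.1% of all genes. Leaving out any 1 library other than NC 3 left 0 of the 30 past the threshold in edgeR, and 0 of all 15870 genes, with 5 to 7 of the 30 at an unadjusted p under 0.05, beside 14.1% to 27.9% of all genes. DESeq2 called 3 of the 30 and 10.6% of all genes. Over all alternatives tried the log2 fold change lay between 0.44 and 1.00 for ERBB2, 0.50 and 0.59 for AXL, and -0.85 and -0.64 for VEGFB. The median log2 fold change of the 30 was 0.08, beside -0.02 for all genes, and 17 of the 30 were positive. Below, CPM are counts scaled to the library total and to edgeR's TMM factors. They serve to compare libraries for 1 gene, not genes with each other.

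ERBB2 (chromosome 17, 39687914 to 39730426, plus strand) codes for the receptor that has no ligand of its own and pairs with other ERBB receptors. ERBB2 had 6.73, 7.86 and 5.52 CPM in the NC libraries and 12.3, 12.1 and 12.3 CPM in the siRNA-labelled libraries. Every siRNA-labelled library lay above every NC library, and NC 3 was the lowest. The log2 fold change was 0.87 (SE 0.17, adjusted p = 0.0467), and without NC 3 it was 0.74 (SE 0.14, adjusted p = 5.04e-04). ERBB2 was nevertheless the lowest of the tested receptors, with a mean of 0.928 FPKM. It overlaps MIEN1 by 1931 bases and PGAP3 by 8884 bases on the opposite strand, and the strand setting of the counting is not given in the sources used here, so reads of these genes may not be fully separable. MIEN1 held 4130 reads and PGAP3 886 reads, against 714 for ERBB2. With all 6 libraries MIEN1 had a log2 fold change of -0.49 (adjusted p = 0.108) and PGAP3 of -0.24 (adjusted p = 0.518). Without NC 3 both passed in edgeR, MIEN1 at -0.34 (adjusted p = 0.00116) and PGAP3 at -0.45 (adjusted p = 0.007). The part of these overlaps in the ERBB2 difference was not tested. In all, 14 of the 30 tested members overlap a gene with reads on the other strand.

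AXL (chromosome 19, 41219223 to 41261766, plus strand) codes for a receptor of the TAM family that binds the vitamin K-dependent protein GAS6. AXL had 130.3, 128 and 131 CPM in the NC libraries and 194, 188 and 178 CPM in the siRNA-labelled libraries. The NC libraries were close together, with NC 3 among them, and all siRNA-labelled libraries were higher. The log2 fold change was 0.52 (SE 0.11, adjusted p = 0.0489), and 0.53 (SE 0.05, adjusted p = 5.86e-07) without NC 3. TYRO3, the second TAM receptor (chromosome 15, 41557675 to 41583589, plus strand), had 23.2, 25.0 and 27.0 CPM in the NC libraries and 34.9, 32.9 and 28.7 CPM in the siRNA-labelled libraries. Its groups did not overlap either, but the change passed only without NC 3, at 0.42 (SE 0.10, adjusted p = 0.00411) against 0.36 (SE 0.13, adjusted p = 0.152) with all libraries. GAS6, the ligand of both, had 23.7, 21.8 and 17.3 CPM in the NC libraries and 24.1, 24.9 and 24.2 CPM in the siRNA-labelled libraries. Its groups did not overlap, but it passed in neither fit, with 0.22 on the log2 scale (adjusted p = 0.372) and 0.10 (adjusted p = 0.443) without NC 3.

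VEGFB (chromosome 11, 64234584 to 64239264, plus strand) codes for a vascular endothelial growth factor that binds FLT1 and neuropilin 1. VEGFB had 97.1, 100.03 and 77.0 CPM in the NC libraries and 60.6, 50.8 and 52.0 CPM in the siRNA-labelled libraries. All 3 NC libraries were above all siRNA-labelled libraries, and NC 3 was the nearest to them. The log2 fold change was -0.75 (SE 0.15, adjusted p = 0.0447), and -0.85 (SE 0.07, adjusted p = 9.34e-08) without NC 3. In FPKM VEGFB measured 45.4 ± 9.11 FPKM in NC and 28.5 ± 2.87 FPKM in the siRNA-labelled libraries (SD, n = 3 each). VEGFB overlaps no other gene of the table. FLT1 had no read in any of the 6 libraries, which allows up to 3 reads in each.

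The 250 bases before the annotated start are shown for AXL and VEGFB, the members past the threshold whose RefSeq start is also the start of the gene in the table (GRCh38.p14, 5′ to 3′ on the gene's strand, capitals marking GGGCGG or its reverse complement, the GC box bound by SP-family factors). Which start these cells used was not measured.
AXL, chr19:41218973-41219222, plus strand: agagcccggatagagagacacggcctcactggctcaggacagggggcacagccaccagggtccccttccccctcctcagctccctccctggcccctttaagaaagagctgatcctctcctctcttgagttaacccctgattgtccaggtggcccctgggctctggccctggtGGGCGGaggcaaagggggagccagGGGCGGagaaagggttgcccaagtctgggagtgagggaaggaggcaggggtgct
VEGFB, chr11:64234334-64234583, plus strand: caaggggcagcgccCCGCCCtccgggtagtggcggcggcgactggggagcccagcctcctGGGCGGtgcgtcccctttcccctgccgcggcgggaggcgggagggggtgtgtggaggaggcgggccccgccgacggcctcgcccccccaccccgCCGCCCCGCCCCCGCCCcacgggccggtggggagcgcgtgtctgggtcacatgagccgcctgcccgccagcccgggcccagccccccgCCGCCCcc
The AXL window holds 2 such matches and has 64.4% G and C. The VEGFB window holds 6, some of them overlapping, and has 82.8% G and C. Over the 26 of 30 tested members with an entry in the RefSeq table, 19 (73.1%) hold a GC box in this window, beside 42.6% of all 35116 promoters in the table. Each member counts once, at the start nearest the deposited one, while the 35116 include several starts for some genes. Of all 49 matched members, tested or not, 35 hold a GC box. CCAAT was found in 4 of the 26 (15.4%, against 32.0% of all), TATAAA in 3 (11.5%, against 10.7%) and the AP-1 letters TGANTCA in 2 (7.69%, against 6.57%), each searched on both strands. These are matches of letters and not binding sites.

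**Figure D2:**
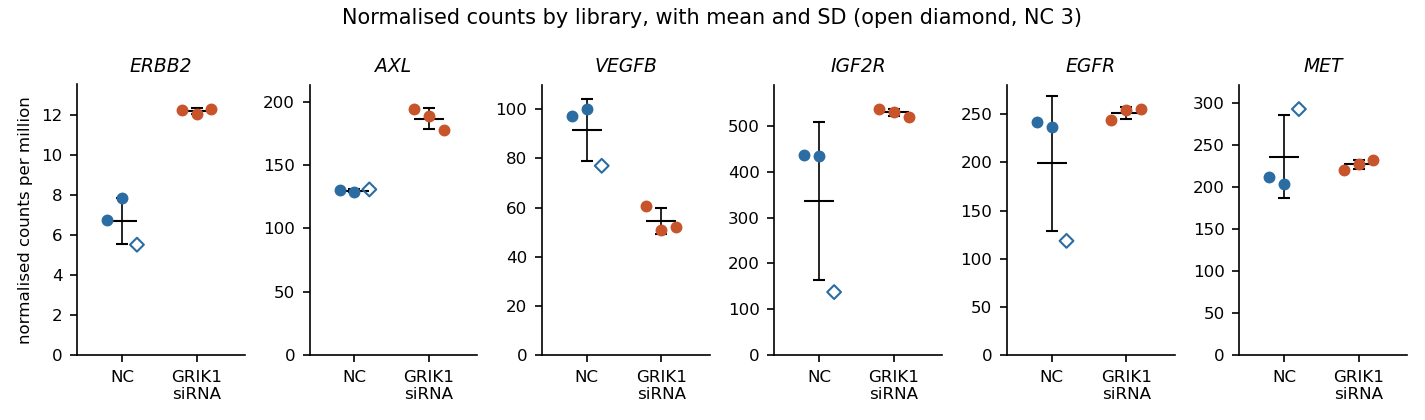
TMM-scaled CPM of 6 genes, with 1 point a library, the mean as a line and the SD as a bar (n = 3 each), on axes that start at 0, and NC 3 as an open diamond. ERBB2, AXL and VEGFB show groups that do not overlap, and neither do those of IGF2R and EGFR. In IGF2R (137 CPM), EGFR (118 CPM) and MET (293 CPM) NC 3 lies far from NC 1 and NC 2.

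Without NC 3, 16 of the 30 genes passed, 8 higher and 8 lower in the siRNA-labelled libraries, where 35.2% of all genes passed, 16.9% higher and 18.3% lower. Receptors made up 9 of the 16 and growth factors 7. None of the 30 tested genes had a log2 fold change over 1 in size, while 3.09% of all genes tested met both criteria. The common dispersion of the fit was 0.00298 without NC 3 and 0.0391 with it. With all 6 libraries, the groups did not overlap in 14 of the 30 genes (9 higher and 5 lower in the siRNA-labelled libraries), beside 38.4% of all genes. The median log2 fold change without NC 3 was 0.07 for the 30 and 0.01 for all genes, with 18 of 30 positive.

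Among the receptors that passed without NC 3, MET, TYRO3, AXL, ERBB2 and IGF2R were higher. MET (chromosome 7, 116672196 to 116798377, plus strand) had 212, 204 and 293 CPM in the NC libraries and 221, 228 and 233 CPM in the siRNA-labelled libraries. Without NC 3 its groups no longer overlapped and its log2 fold change was 0.13 (SE 0.05, adjusted p = 0.0382), whereas with all libraries it was -0.06 in the other direction (adjusted p = 0.843). HGF, the ligand of MET (chromosome 7, 81699010 to 81770438, minus strand), had 20.1, 21.7 and 20.2 CPM in the NC libraries and 24.9, 27.4 and 27.5 CPM in the siRNA-labelled libraries. It was higher in all siRNA-labelled libraries, by 0.35 (SE 0.10, adjusted p = 0.0112) without NC 3, and by 0.36 (SE 0.12, adjusted p = 0.128) with it. IGF2R (chromosome 6, 159969082 to 160113507, plus strand) had 437, 434 and 137 CPM in the NC libraries and 537, 531 and 521 CPM in the siRNA-labelled libraries. NC 3 held less than any other library, so the log2 fold change fell from 0.66 (SE 0.39, adjusted p = 0.325) with all 6 libraries to 0.28 (SE 0.05, adjusted p = 1.25e-04) without it, where it passed.

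The receptors that passed without NC 3 in the other direction were DDR2, DDR1, FGFR1 and KDR. DDR2 (chromosome 1, 162631373 to 162787405, plus strand) had 264, 267 and 278 CPM in the NC libraries and 231, 231 and 225 CPM in the siRNA-labelled libraries. All NC libraries were above the others, with a log2 fold change of -0.21 (SE 0.04, adjusted p = 0.0011) without NC 3 and -0.23 (SE 0.11, adjusted p = 0.223) with it. DDR1, the other collagen receptor (chromosome 6, 30876421 to 30900156, plus strand), had 82.9, 79.0 and 53.5 CPM in the NC libraries and 59.5, 57.7 and 61.3 CPM in the siRNA-labelled libraries. NC 3 was below the siRNA-labelled libraries and NC 1 and NC 2 were above them, and DDR1 differed by -0.44 (SE 0.06, adjusted p = 2.76e-05) without NC 3 and by -0.27 (SE 0.18, adjusted p = 0.363) with it. FGFR1, a receptor of FGF2, had 157, 146 and 125 CPM in the NC libraries and 131, 129 and 134 CPM in the siRNA-labelled libraries. NC 3 again lay below all the others, and the log2 fold change was -0.21 (SE 0.05, adjusted p = 0.00491) without it and -0.12 (SE 0.12, adjusted p = 0.568) with it. FGFR1 overlaps LETM2, on the opposite strand, which was higher (1.34, adjusted p = 0.0292). KDR, the main signalling receptor of VEGFA (chromosome 4, 55078481 to 55125595, minus strand), had 14.3, 14.8 and 10.9 CPM in the NC libraries and 12.9, 11.4 and 9.73 CPM in the siRNA-labelled libraries. NC 1 and NC 2 were the highest libraries. The log2 fold change was -0.36 (SE 0.13, adjusted p = 0.0441) without NC 3 and -0.23 (SE 0.18, adjusted p = 0.445) with it.

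**Figure D3:**
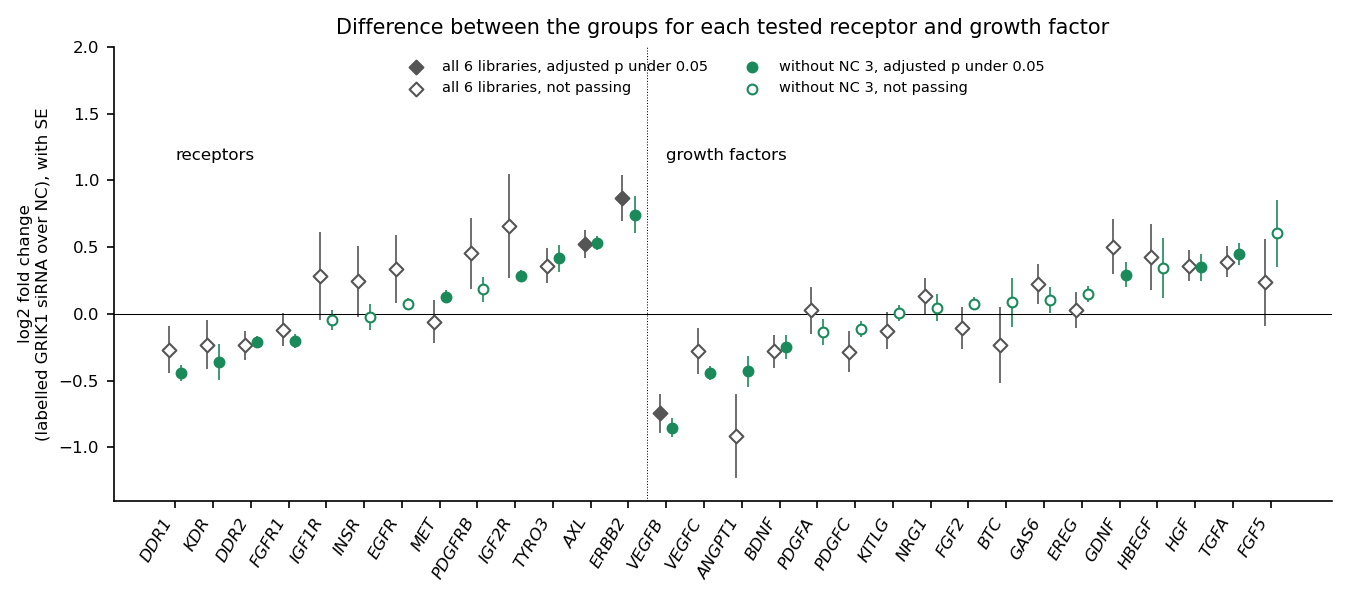
Log2 fold change (siRNA-labelled over NC) of the 30 tested genes with its SE, from all 6 libraries (diamonds) and without NC 3 (circles), filled where the adjusted p was under 0.05. Filled diamonds mark ERBB2 at 0.87, AXL at 0.52 and VEGFB at -0.75, and 16 circles are filled.

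NC 3 lay outside the range of the other 5 libraries in 23 of the 30 genes, and 7 of the 30 changed direction when it was left out. Neither count was made over all genes, where NC 3 also stood apart. It differed by more than 2-fold from the mean of NC 1 and NC 2 in 6 of the 30 genes and in 3074 of all 15870. The 5 lowest ratios were those of receptors. NC 3 held 0.315 times the mean of NC 1 and NC 2 for IGF2R, 0.386 times for IGF1R, 0.490 times for PDGFRB, 0.493 times for INSR and 0.495 times for EGFR. Other receptors were higher in NC 3, with MET at 1.41 times and TYRO3 at 1.12 times. Growth factors also moved both ways, with GDNF at 0.596 times and ANGPT1 at 2.18 times. EGFR (chromosome 7, 55019017 to 55211628, plus strand) had 242, 237 and 118 CPM in the NC libraries and 244, 254 and 255 CPM in the siRNA-labelled libraries. The 5 libraries other than NC 3 were close, with a log2 fold change of 0.07 (SE 0.04, adjusted p = 0.235) without NC 3 and 0.34 (SE 0.26, adjusted p = 0.434) with it. IGF1R and INSR, the insulin-family receptors, also had their lowest value in NC 3, and differed by -0.05 and -0.02 without NC 3 (adjusted p = 0.686 and 0.884). PDGFRB, the receptor of PDGF-B and PDGF-D, had 0.19 (adjusted p = 0.141). Over the 30 genes the median size of the NC 3 deviation was 0.44 on the log2 scale, beside 0.52 for all genes tested, and that between NC 2 and NC 1 was 0.069, beside 0.12. Across the 30 genes the log2 deviation of NC 3 had a Spearman correlation of -0.29 with exonic size, and 0.03 across all 15870, as a description over genes of 1 library. The part of NC 3's higher share of ribosomal protein reads in these gaps was not tested.

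Among growth factors, HGF, TGFA and GDNF were higher without NC 3, and VEGFB, VEGFC, ANGPT1 and BDNF were lower. TGFA, an EGFR ligand (chromosome 2, 70447284 to 70554193, minus strand), had 30.1, 28.8 and 33.0 CPM in the NC libraries and 41.1, 39.9 and 39.7 CPM in the siRNA-labelled libraries. The NC libraries lay together, NC 3 included, and all siRNA-labelled libraries were higher, by 0.45 (SE 0.08, adjusted p = 3.93e-04) without NC 3 and 0.39 (SE 0.11, adjusted p = 0.102) with it. GDNF, a survival factor for neurons (chromosome 5, 37812677 to 37840041, minus strand), had 25.9, 24 and 14.9 CPM in the NC libraries and 31.3, 31.0 and 29.3 CPM in the siRNA-labelled libraries. NC 3 was the lowest, and the log2 fold change was 0.29 (SE 0.09, adjusted p = 0.0196) without NC 3 and 0.50 (SE 0.21, adjusted p = 0.187) with it. GDNF overlaps GDNF-AS1 on the opposite strand, which had 0.18 (adjusted p = 0.638) in the 6-library fit.

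VEGFC (chromosome 4, 176683538 to 176792922, minus strand) had 117, 123 and 80.7 CPM in the NC libraries and 86.5, 90.6 and 87.6 CPM in the siRNA-labelled libraries. NC 3 was the lowest of all 6, so the groups overlapped, and the log2 fold change was -0.44 (SE 0.05, adjusted p = 6.90e-06) without NC 3 and -0.28 (SE 0.17, adjusted p = 0.339) with it. ANGPT1, the ligand that activates the vessel receptor TEK, had 16.1, 17.7 and 36.9 CPM in the NC libraries and 11.5, 13.5 and 12.5 CPM in the siRNA-labelled libraries. It was lower in every siRNA-labelled library, but the size rested on NC 3, at -0.92 (SE 0.32, adjusted p = 0.138) with all libraries and -0.43 (SE 0.12, adjusted p = 0.00844) without NC 3. With all libraries and no filter on low levels ANGPT1 passed, at -0.95 (adjusted p = 0.0298). BDNF, the neurotrophin that binds NTRK2 (chromosome 11, 27654893 to 27722058, minus strand), had 42.1, 42.7 and 45.2 CPM in the NC libraries and 34.2, 39.4 and 33.4 CPM in the siRNA-labelled libraries. The groups did not overlap, with -0.25 (SE 0.09, adjusted p = 0.0341) without NC 3 and -0.28 (SE 0.12, adjusted p = 0.197) with it, and BDNF-AS lies across it on the opposite strand.

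The abundant growth factors FGF2, EREG and PDGFC passed in neither fit. FGF2 (chromosome 4, 122826708 to 122898236, plus strand) had 164, 164 and 229 CPM in the NC libraries and 169.7, 175 and 174 CPM in the siRNA-labelled libraries. NC 3 was the highest, and the log2 fold change without it was 0.08 (SE 0.05, adjusted p = 0.224). EREG (chromosome 4, 74365145 to 74388749, plus strand) had 96.4, 106 and 127 CPM in the NC libraries and 114, 115 and 107 CPM in the siRNA-labelled libraries. Without NC 3 it came close to the threshold, at 0.15 (SE 0.06, adjusted p = 0.0587), and with all libraries it was 0.03 (adjusted p = 0.905). PDGFC (chromosome 4, 156760454 to 156971799, minus strand) had 76.7, 80.6 and 108 CPM in the NC libraries and 71.4, 73.5 and 73.0 CPM in the siRNA-labelled libraries. Its groups did not overlap, and the log2 fold change was -0.11 (SE 0.06, adjusted p = 0.155) without NC 3. Of the other EGFR ligands tested, HBEGF had 3.72, 5.45 and 3.84 CPM in the NC libraries and 6.64, 6.37 and 4.50 CPM in the siRNA-labelled libraries, and BTC had 10.1, 7.23 and 15.0 CPM in the NC libraries and 7.27, 9.52 and 10.8 CPM in the siRNA-labelled libraries. Both overlapped between the groups and passed in neither fit. FGF5 likewise had 3.81, 2.23 and 5.6 CPM in the NC libraries and 4.14, 5.07 and 4.57 CPM in the siRNA-labelled libraries. The remaining growth factors KITLG, PDGFA and NRG1 had log2 fold changes between -0.13 and 0.13 with all libraries, with adjusted p from 0.568 to 0.937.

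To set ligands beside their receptors, 35 known pairs among the 58 genes were read for the FPKM of both partners. Both reached a mean of 0.5 FPKM in 10 pairs, the ligand alone in 11, the receptor alone in 9 and neither in 5. The pairs present on both sides joined EGFR to EREG, TGFA, BTC and HBEGF, MET to HGF, AXL and TYRO3 to GAS6, FGFR1 to FGF2 and FGF5, and KDR to VEGFC. The ratio of ligand to receptor in FPKM ranged widely between them. HGF stood at 0.0511 to 0.0890 times MET in the 6 libraries and GAS6 at 0.106 to 0.155 times AXL, whereas FGF2 stood at 2.65 to 4.64 times FGFR1, EREG at 1.11 to 2.99 times EGFR and VEGFC at 16.3 to 21.8 times KDR. The upper end for EREG was NC 3, where EGFR was low. With all 6 libraries both partners passed in 0 of the 10 pairs. Without NC 3 both passed in 2, where 35.2% of all genes and 16 of the 30 tested members passed. The 2 were HGF with MET, both higher in the siRNA-labelled libraries, and VEGFC with KDR, both lower. With all 6 libraries the log2 fold change of MET was -0.06.

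In the pairs with the ligand alone, the receptor had few reads or none. KITLG, stem cell factor, had a mean of 11.9 FPKM and no read of KIT was counted. GDNF had 5.70 FPKM and RET none, VEGFB 36.9 FPKM and FLT1 none. BDNF had 5.09 FPKM beside 1 read of NTRK2 over the 6 libraries, and VEGFC had 37.5 FPKM beside 1 read of FLT4. PDGFRA, the receptor of PDGFA and PDGFC, had 3, 2 and 6 reads in the NC libraries and 10, 2 and 4 reads in the siRNA-labelled libraries. TEK, the receptor of ANGPT1, had 0, 2 and 3 reads in the NC libraries and 2, 2 and 1 reads in the siRNA-labelled libraries. NRG1 also had 1.04 FPKM with its receptors ERBB3 and ERBB4 at 0.0733 and 0.0167 FPKM, and MERTK, a GAS6 receptor, at 0.0233 FPKM. The pairs with the receptor alone were those of IGF1R, IGF2R and INSR with IGF1 or IGF2, PDGFRB with PDGFB and PDGFD, EGFR with EGF and AREG, and FGFR1 with FGF1. IGF1 had 1 read and PDGFD none in all 6 libraries. IGF2 had 0, 0 and 10 reads in the NC libraries and 2, 2 and 1 reads in the siRNA-labelled libraries, so NC 3 alone held most of them.

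**Figure D4:**
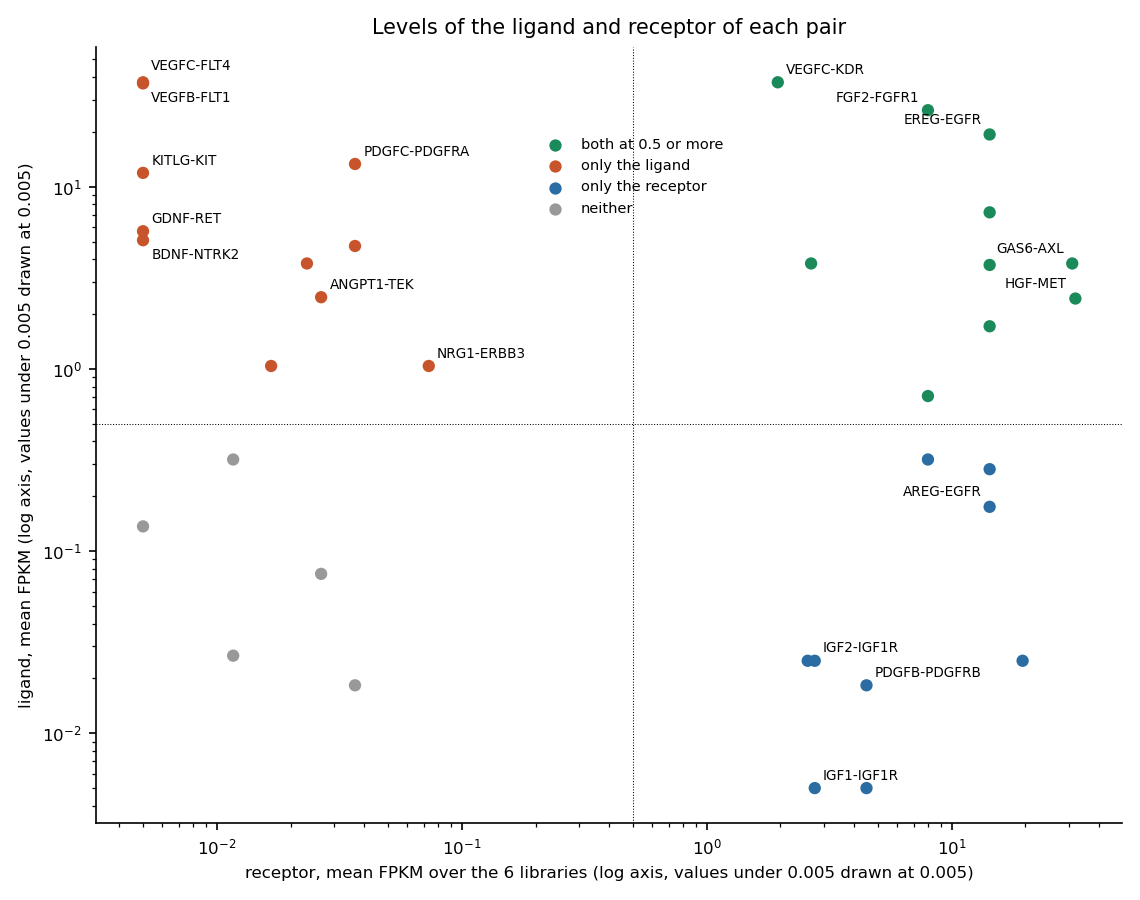
Mean FPKM over the 6 libraries of the receptor (horizontal) and ligand (vertical) of each of the 35 pairs, on log axes with the dotted lines at 0.5 FPKM and values under 0.005 drawn at 0.005. The 10 pairs with both partners at 0.5 FPKM or more lie at the upper right, and 11 pairs with the ligand alone lie at the upper left.

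The 28 genes below 0.5 FPKM comprised 18 receptors and 10 growth factors. KIT, FLT1, RET and PDGFD had no read in any library, FLT4, ROR2, NTRK2 and IGF1 had 1 to 3 reads in all, and the other 20 had at least 4. A fit without the filter on low levels with edgeR called none of them with all 6 libraries, where 4.12% of 34080 genes passed. At an unadjusted p under 0.05 it held 5 of them, beside 17.0% of all genes. Without NC 3 that fit called 4 of them, where 17.0% of all genes passed, namely ROR1, ERBB3, AREG and ANGPT2. ROR1, a receptor of WNT5A, had 21, 22 and 25 reads in the NC libraries and 44, 48 and 44 reads in the siRNA-labelled libraries. The ratio of the summed reads scaled to the library totals was 1.9 (95% interval 1.41 to 2.58), with an adjusted p of 0.143 with all libraries and 0.0348 without NC 3. ROR1-AS1, on the opposite strand across ROR1, held 2846 reads against 204 for ROR1. ERBB3 (chromosome 12, 56076799 to 56103505, plus strand) had 5, 4 and 7 reads in the NC libraries and 24, 11 and 14 reads in the siRNA-labelled libraries, a ratio of 2.90 (95% interval 1.62 to 5.47), with adjusted p of 0.132 and 0.0265. AREG, amphiregulin (chromosome 4, 74445136 to 74455005, plus strand), went the other way, with 9, 3 and 7 reads in the NC libraries and 0, 2 and 0 reads in the siRNA-labelled libraries. Its ratio was 0.0998 (95% interval 0.0113 to 0.414), with adjusted p of 0.077 and 0.0326. ANGPT2, a context-dependent ligand of TEK, had 0, 4 and 0 reads in the NC libraries and 9, 9 and 17 reads in the siRNA-labelled libraries, a ratio of 8.29 (95% interval 2.97 to 32.1), with adjusted p of 0.0518 and 0.0199. It lies within MCPH1 on the opposite strand, which held 1916 reads against 39. MERTK had no read in NC and 5, 0 and 2 in the siRNA-labelled libraries.

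The other genes of the pathway were read from 3 lists. Of 42 adaptors and enzymes downstream of the receptors, 37 were tested, and none passed with all 6 libraries, where 12 had an unadjusted p under 0.05 in edgeR, beside 25.1% of all genes. Their median log2 fold change was -0.16, beside -0.02 for all genes. Without NC 3, 20 of the 37 passed, 11 higher and 9 lower, where 35.2% of all genes passed, and the median was 0.0028. Of 41 co-receptors, sheddases and binding proteins of the ligands, 27 were tested. Where 3.08% of all genes passed, 1.60% higher, 2 of the 27 passed, both higher. These were ADAM12, a metalloprotease that sheds HB-EGF, at 1.37 (adjusted p = 0.0306), and IGFBP3, the main carrier of insulin-like growth factors in blood, at 0.67 (adjusted p = 0.0449). Without NC 3, 18 of the 27 passed, 9 in each direction, beside 35.2% of all genes. Of 47 receptor tyrosine kinases and growth factors outside the 58, 19 were tested and none passed with all 6 libraries, where 5 had an unadjusted p under 0.05, against the same 25.1%. Without NC 3, 8 of those 19 passed, 1 higher and 7 lower, beside 16.9% higher and 18.3% lower of all genes. The median log2 fold change of the 19 was -0.11. DESeq2 with all 6 libraries called 13 genes over the 3 lists and 10.6% of all genes.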

How the data were processed

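RNA sequencing of U87-MG cells gave 6 libraries, 3 NC and 3 labelled GRIK1 siRNA, grouped by title alone. The authors deposited whole-number read counts per gene and FPKM computed from them, and the table's FPKM were recomputed from counts, total and exonic size to within 0.0051 for 100% of values. The submitters' processing notes name cutadapt 1.9.1, HISAT2, HTSeq and GRCh38; the strand setting was not given in the sources used here. No column was unassigned. The deposited counts were tested with the quasi-likelihood test of edgeR 4.0.16 (R 4.3.3, TMM scaling, Benjamini-Hochberg adjustment) over the 15870 genes with a mean FPKM of at least 0.5. Alternatives used DESeq2 1.42.0 and limma 3.58.1, and limma-trend took log2(FPKM + 1). GRIK1 was compared by an exact permutation test written in Python 3.11.15 with numpy 2.4.6. Counting intervals and Spearman correlations used scipy 1.17.1. The fit was tested on simulated data. Standard errors were the log2 fold change over the root of F.

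The members, pairs and lists were chosen with earlier results of these data known. Values per library are given for members past an adjusted p of 0.05 with all libraries or without NC 3, the 5 receptors and 5 growth factors with the highest FPKM, and their partners. Of the list genes, those past the threshold with all libraries are named. Promoters came from RefSeq (49 of 58 members matched). Every pair of libraries differed by more than sampling noise.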

Additional observations from a re-analysis of the deposited data

How the results depend on the processing

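The count of members past the threshold was 3 with the settings reported, where 3.08% of all genes passed. It was also 3 (ERBB2, AXL and VEGFB) with median-of-ratios scaling (486 of all 15870 genes), filterByExpr (620 of 15845) and DESeq2 (10.6%). With no filter (4.12% of 34080 genes) it was 3 as well, but AXL was lost (adjusted p = 0.09) and ANGPT1 gained (0.0298). It was 2 with limma-voom (ERBB2 and VEGFB, 472 of all 15870 genes) and with a mean FPKM of at least 1 (AXL and VEGFB, 533 of 13030). It was 1 with upper-quartile scaling (501 of 15870), robust fitting (412 of 15870) and limma-trend on log2(FPKM + 1) (407 of 15870). The gene left was AXL with upper-quartile scaling and limma-trend, and ERBB2 with robust fitting. It ranged from 0 to 16 when each library was left out in turn, 16 coming without NC 3 and 0 without any other. Without NC 3, alternatives added after seeing the data gave 12 with DESeq2 (26.5% of all genes) and 18 with no filter (17.0% of 34080 genes). They gave 16 with limma-voom (5461 of all 15870 genes) and with median-of-ratios scaling (5594 of 15870). Among the other pathway genes (37, 27 and 19 tested in the 3 lists) the count was 2 as reported. It was 5 with no filter, 13 with DESeq2 and 1 with robust fitting, beside the shares of all genes given above. It was 0 to 46 when each library was left out, 46 coming without NC 3, where 35.2% of all genes passed. With the replicate number as a block, 0 members and 0 other pathway genes passed in edgeR, with 7 members at an unadjusted p under 0.05, beside 20.9% of all genes. The deviations of same-numbered libraries from their group means had correlations of -0.070, 0.044 and -0.043. NC 3 pulls the NC mean, so these correlations cannot show whether the numbers are pairs. The labels do not give pairs, and the main fit used no block.

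Some members that passed in no 6-library fit changed sign. On limma-trend MET was 0.048 and FGF2 0.0023 on the log2 scale. Leaving out each library in turn gave log2 fold changes of -0.15 to 0.13 for MET, -0.047 to 0.52 for IGF1R, -0.024 to 0.40 for INSR, -0.18 to 0.077 for FGF2, -0.052 to 0.15 for EREG, -0.20 to 0.0060 for KITLG, -0.13 to 0.13 for PDGFA, -0.45 to 0.087 for BTC and -0.038 to 0.60 for FGF5. The causes were not tested. Depth limits the 28 genes below 0.5 FPKM, where few reads stand behind each value. ERBB2 and FGF5 fell below the filter of 1 FPKM and have no value there.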

Other observations

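Genes around the members were read from the same lists and chosen here after their values were seen. VEGFA, the vascular growth factor outside the member list, had a mean of 269 FPKM, far above VEGFC (37.5 FPKM) and VEGFB (36.9 FPKM). VEGFA did not pass with all libraries (-0.20 on the log2 scale, adjusted p = 0.658 in edgeR), and without NC 3 it was lower, at -0.45 (adjusted p = 1.94e-07). The VEGF co-receptor NRP1 had 61.4 FPKM and NRP2 37.3 FPKM. Pleiotrophin, PTN, had 75.5 FPKM. ALK was at 0.297 FPKM, and of its listed ligands ALKAL2 had 0.228 FPKM and ALKAL1 no read. IL34, a ligand of CSF1R, had a log2 fold change of -1.24 (adjusted p = 0.064 with all libraries, 0.00285 without NC 3), and CSF1R had 1.08 FPKM. The 4 GFRA genes, which code for the co-receptors of the GDNF family, were all below 0.5 FPKM while GDNF had 5.70 FPKM.

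Of the insulin-like growth factor binding proteins, IGFBP6 (145 FPKM) and IGFBP3 (137 FPKM) were the most abundant of the 7 listed, and IGFBP3 had 502, 511 and 429.7 CPM in the NC libraries and 770.0, 760.4 and 758 CPM in the siRNA-labelled libraries. ADAM12 had 152, 146 and 88.0 CPM against 329, 335 and 332 CPM in the same order. In both genes every siRNA-labelled library was above every NC library.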
